A study of Mus musculus with 6 samples.

Results

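Among the 25697 probes of the mouse arrays, 5 were detected on every array of the low-passage lines EPC and EPC_acLDL and on neither array of the high-passage line EPC_Late. They read Cavin3, Gtse1, the Zfp91-Cntf read-through transcript, 1110038F14Rik and LOC100044221. A probe was a member if its detection p-value was below 0.01 on all 4 EPC and EPC_acLDL arrays and at least 0.05 on both EPC_Late arrays. That p-value is the fraction of an array's negative control probes whose brightness equals or exceeds that of the probe. The members made up 0.0195% of all probes and 0.506% of the 988 probes detected on the 4 low-passage arrays. The members were thus chosen by the detection p-values of all 6 arrays, so the levels in EPC_Late against either other line are given as a description with no test.

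All 3 lines came from lung of athymic nude mice and from cells sorted as positive for Flk-1 and a stem cell marker and negative for CD45, and all were grown in mouse endothelial medium with fetal bovine serum. EPC was the sorted population at passage 3 to 6. EPC_acLDL was EPC labelled with fluorescent acetylated low density lipoprotein, sorted for the labelled cells and replated, also at passage 3 to 6. EPC_Late was EPC_acLDL carried to passage 16 to 20, so that each line descends from the one before it, passage number cannot be told apart from the line, and EPC_Late differs from EPC in the lipoprotein sort as well. Each line was measured on 2 arrays, and because the sources do not settle whether those were separate cultures, p-values measure only the spread between the arrays.

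Caveolae are flask-shaped pits of the plasma membrane, abundant in endothelial cells, fibroblasts and muscle cells, that are built from caveolins and a coat of cavin proteins. Cavin3, listed on the array under its older name Prkcdbp, is the cavin that binds protein kinase C delta. Gtse1, named for its expression in S and G2 phase, binds microtubules and restrains p53 during recovery from DNA damage. Zfp91 is a zinc finger ubiquitin ligase and Cntf a neurotrophic cytokine, and the read-through RNA runs from the first gene into the second. No role is given here for 1110038F14Rik, an uncharacterized protein-coding gene, or for LOC100044221, which had no entry in the mouse gene table.

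The arrays were alike in background, with a median intensity of 304.6 to 358.7 and 2177 to 2365 probes with a detection p-value below 0.05. Of the 17 endothelial marker genes on the arrays, 15 had no probe above background on both arrays of any line, Pecam1 and Cdh5 among them. Kdr, the gene of Flk-1, was above background on all 6 arrays. Of all 17883 genes on the arrays, 15756 had no such probe either. Most genes thus went unread, and the unread markers do not show that the lines lack them. The lowest intensity that still had a detection p-value below 0.05 was 416.5 to 445.3 for EPC, 424.6 to 468.6 for EPC_acLDL and 451.4 to 468.4 for EPC_Late.

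Promoter sequences show what is shared at the Zfp91 locus and what precedes Gtse1, the member with a known cell cycle role. Promoter entries from RefSeq on GRCm38.p6 were used for Gtse1 and for the read-through transcript, current symbol Gm44505, 2 of the 5 members. Gtse1 has 2 starts in the table. The 250 bases before the first lie at chr15:85859457-85859706 on the plus strand, with matches to CCAAT in capitals, read as ATTGG where the match is on the other strand. The read-through transcript and Zfp91 share one start, and the 250 bases before it lie at chr19:12796124-12796373 on the minus strand, printed in the direction of transcription.
Gtse1: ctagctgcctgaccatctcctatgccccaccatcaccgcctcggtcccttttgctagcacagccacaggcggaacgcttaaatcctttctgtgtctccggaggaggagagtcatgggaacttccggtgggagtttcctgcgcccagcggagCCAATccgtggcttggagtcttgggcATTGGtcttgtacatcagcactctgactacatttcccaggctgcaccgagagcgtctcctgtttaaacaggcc
Zfp91 and Zfp91-Cntf: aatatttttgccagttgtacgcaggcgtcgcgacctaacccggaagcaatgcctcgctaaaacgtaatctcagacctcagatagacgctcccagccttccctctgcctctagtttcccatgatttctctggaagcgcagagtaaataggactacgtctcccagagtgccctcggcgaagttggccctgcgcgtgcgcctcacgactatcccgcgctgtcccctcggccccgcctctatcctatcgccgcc
The first Gtse1 window held CCAAT at positions -99 and -73, counted from the start. The window of the second start, chr15:85859696-85859945 on the same strand and not printed, held a single CCAAT at -241, and 33.8% of the 32851 promoters of the same length held CCAAT on either strand. None of the windows held TTTGAA (16% of all promoters), GGGCGG (32.7%) or CACGTG (6.02%), and the shared Zfp91 window held no CCAAT, which says only that these letters are not in these windows. Because the RNAs of Zfp91 and of the read-through begin at the same position, they overlap, and whether the probe named for the read-through reads bases that both contain was not tested.

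Cavin3 was bright enough to be detected in both low-passage lines and missed the detection limit on both EPC_Late arrays, though it was still brighter there than most negative controls. Its intensity (linear bead signal, arbitrary units) was 550.4 and 596.8 in EPC, 641.7 and 674.2 in EPC_acLDL, and 425.2 and 427.3 in EPC_Late. The EPC_Late values lay below all 4 others, as the choice of the members largely fixes (over all probes tested, 58% did not overlap with EPC and 58.6% did not with EPC_acLDL), with detection p-values of 0.0752 and 0.0852. After background correction and normalization the EPC mean was at least 2.38-fold, and the EPC_acLDL mean at least 2.66-fold, above what the EPC_Late arrays allow under that correction. These are bounds against the lowest normalized signal still above background on each EPC_Late array, or the signal of the probe itself where that was higher.

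Gtse1 had the lowest mean intensity of the members over the low-passage arrays. Its intensity was 572.4 and 535.8 in EPC, 558.5 and 678.5 in EPC_acLDL, and 424.2 and 412.6 in EPC_Late. The last 2 values were below the others, and its second EPC_Late detection p-value, 0.127, was the highest of any member. The bounds were at least 2.16-fold for EPC and 2.32-fold for EPC_acLDL.

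The Zfp91-Cntf probe read 558.4 and 681.6 in EPC, 565.8 and 620.3 in EPC_acLDL, and 436.3 and 457.5 in EPC_Late, with EPC_Late detection p-values of 0.0589 and 0.0602. The low-passage lines overlapped each other and lay above EPC_Late. The bounds were at least 2.81-fold and 2.14-fold for EPC and EPC_acLDL.

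The probe of 1110038F14Rik read 623.2 and 584.9 in EPC, 724.3 and 570.2 in EPC_acLDL, and 417.0 and 467.9 in EPC_Late. It sat nearest to both limits of the rule, with a detection p-value of 0.00877 on the second EPC_acLDL array and 0.0514 on the second EPC_Late array. Its EPC_acLDL arrays were also the farthest apart of any member, with an SD of 0.58 on the normalized log2 scale. The bounds were at least 2.65-fold and 2.43-fold.

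LOC100044221 was the brightest member and was highest in EPC. Its intensity was 1189.1 and 1053.9 in EPC, 567.1 and 632.7 in EPC_acLDL, and 417.6 and 441.7 in EPC_Late, where the detection p-values were 0.0764 and 0.0677. No array of one line overlapped those of another, which also held for Cavin3, and between EPC_acLDL and EPC 50.8% of all probes tested did not overlap. The bound for EPC was 7.62-fold and that for EPC_acLDL 2.18-fold. These bounds depend on the background correction, and for EPC over EPC_Late that of LOC100044221 was 4.1-fold with normexp at an offset of 50 and 2.66-fold without correction, while those of the other 4 members, 2.16 to 2.81 above, were 1.57 to 1.87 and 1.31 to 1.47. For EPC_acLDL over EPC_Late it was 1.58-fold and 1.31-fold, that of Cavin3 fell to 1.80-fold and 1.43-fold, and those of the other 4 members spanned 1.56 to 1.80 and 1.30 to 1.43.

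**Figure D1:**
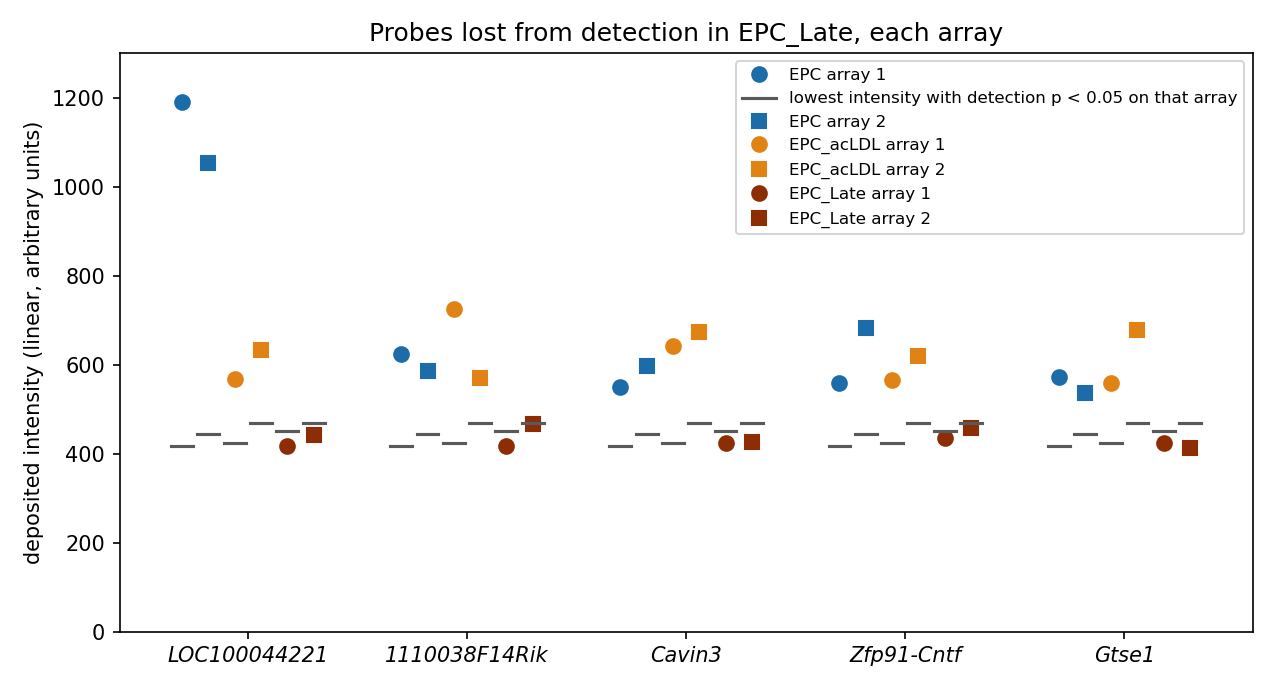
Deposited intensity (linear, arbitrary units) of the 5 members on each of the 6 arrays, with circles for array 1 and squares for array 2 of a line and a bar at the lowest intensity with a detection p-value below 0.05 on that array. All EPC_Late points lie between 412.6 and 467.9, at or below their bars, and all others between 535.8 and 1189.1.

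The members were dim even where they were detected. By mean intensity over the 4 low-passage arrays, Gtse1 stood at percentile 8.7 of the 988 detected probes, Zfp91-Cntf at 11.5, Cavin3 at 12.9, 1110038F14Rik at 14.6 and LOC100044221 at 38.7. The median of the 988 probes was 1167.4, above the mean of every member. The ratio of mean low-passage to mean EPC_Late intensity, without background correction, was 1.36 to 2 for the members and had a median of 1.01 over the 988 probes. Among the other detected probes, 176 had a ratio of at least 1.36, up to 3.08, and 160 of these 176 kept a detection p-value below 0.01 on both EPC_Late arrays. Background adds to both terms of such a ratio and brings it closer to 1 the dimmer the probe, so the ratios do not rank the size of the drop between dim and bright probes.

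**Figure D2:**
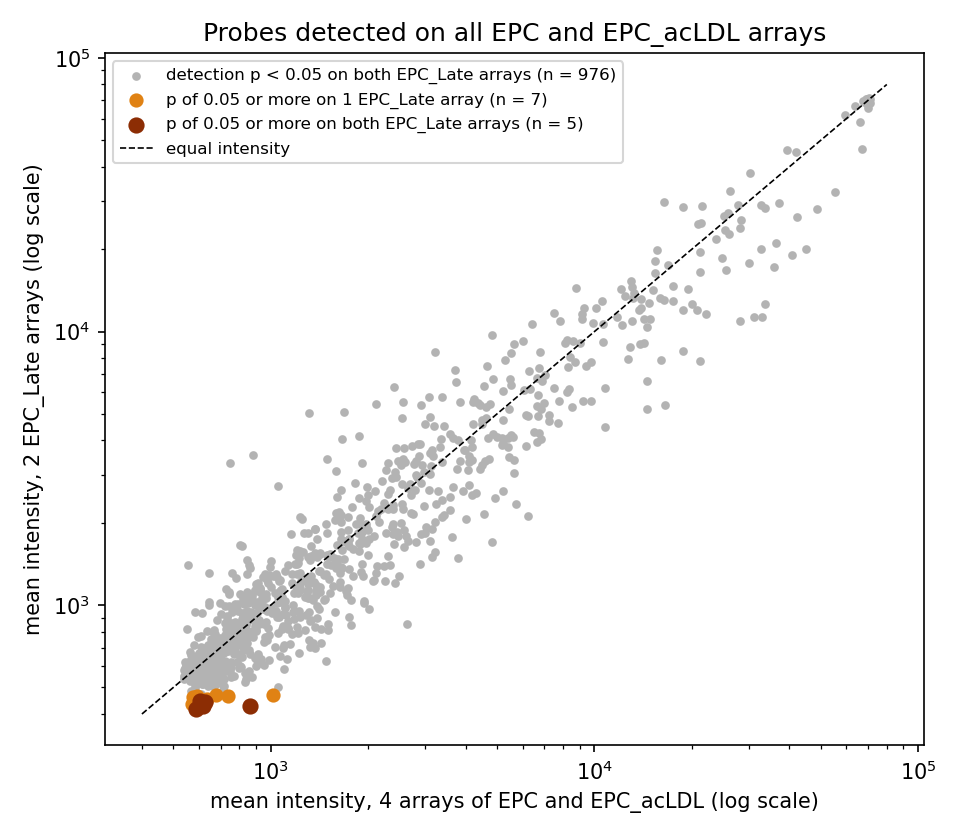
Mean intensity on the 2 EPC_Late arrays against the mean on the 4 EPC and EPC_acLDL arrays, both on log axes, for the 988 probes detected on those 4 arrays, with a dashed line at equal intensity. The 5 members and the 7 probes lost on 1 EPC_Late array lie along the lower edge, while 976 probes stayed detected on both.

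The number of members depended on where the limits lay. Just outside the EPC_Late limit were Rffl, BC011248 and Rbpms, with a lowest EPC_Late detection p-value of 0.0451, 0.0414 and 0.0401, against 0.0514 for 1110038F14Rik, 0.0589 for Zfp91-Cntf and 0.0677 for LOC100044221 just inside. Just outside the low-passage limit were Psmd11, Hmga1 and Hoxc10, with a highest detection p-value of 0.015, 0.0188 and 0.0201, against 0.00877 for 1110038F14Rik, 0.00627 for Gtse1 and 0.00251 for LOC100044221 inside. The 7 probes lost on 1 EPC_Late array read Lmna, Tubb1, Axl, BC011248, Eif4a1, Rbpms and Rffl. For all of these except Rbpms it was array 1 that lost them, and leaving out array 2 gave 11 lost probes in place of 5, with all 5 members among them.

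Applied to the other lines in turn, the rule found 1 probe lost in EPC, Dnajc15, of 947 detected on the 4 remaining arrays, and 0 of 937 lost in EPC_acLDL. Turned round, with detection in one line and in neither of the others, it found 4 probes in EPC_Late (LOC100047173, LOC100047937, Mxi1 and Pcdha6), 1 in EPC (Mylk) and 0 in EPC_acLDL. These counts were not tested against each other.

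The comparison that the rule did not use was EPC_acLDL with EPC, which shows whether the members had moved after the lipoprotein sort at equal passage. In limma, with Benjamini-Hochberg adjustment over the 2333 probes above background, 1 of the 5 members passed an adjusted p of 0.05, where 3.3% of all probes tested did, 1.93% higher and 1.37% lower in EPC_acLDL. That was LOC100044221, at a normalized log2 level of 9.73 ± 0.13 (SD, n = 2) in EPC and 7.92 ± 0.15 (SD, n = 2) in EPC_acLDL. The log2 difference was -1.80 (SE 0.13, limma adjusted p = 0.0016), 3.49-fold lower in EPC_acLDL. Directions follow the sample titles. For Sox2, E2f1, Tyms and Gadd45a, which come up later, they oppose those in the study's text or gene list, in which no member stands. They also oppose that list for Srsf1, Srsf2, Srrt and Ybx3 (there Sfrs1, Sfrs2, Ars2 and Csda), which count in the gene lists below. The LOC100044221 difference ranged from -1.91 to -1.02 over the alternatives run, smallest without background correction, and stayed past the threshold in all of them except the methods' t-test after adjustment, where the adjusted p was 0.22.

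For the other members the 95% interval of the difference included 0. The log2 difference was 0.16 (interval -0.15 to 0.47, limma adjusted p = 0.53) for Cavin3 and 0.10 (-0.45 to 0.64, limma adjusted p = 0.86) for Gtse1. Zfp91-Cntf stood at -0.39 (-0.84 to 0.06, limma adjusted p = 0.30), and 1110038F14Rik at -0.12 (-0.81 to 0.56, limma adjusted p = 0.86). These intervals leave room for differences of up to 0.84 on the log2 scale.

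**Figure D3:**
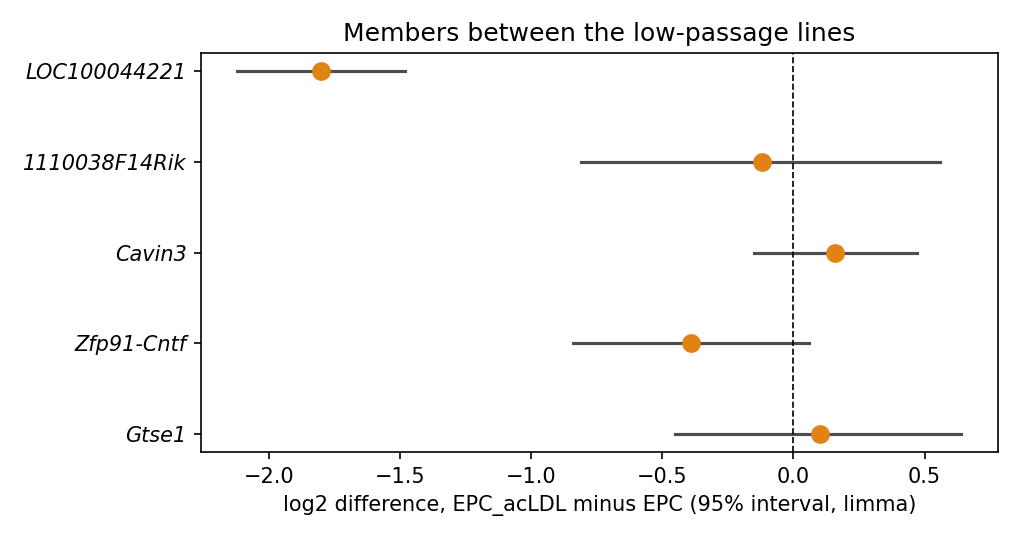
Difference in normalized log2 signal, EPC_acLDL minus EPC, for each member, with points for the limma estimate, bars for its 95% interval and a dashed line at 0. LOC100044221 lies at -1.80, and the intervals of the other 4 members include 0.

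Other probes of the member genes gave no second reading. Cavin3 and 1110038F14Rik had 1 more probe each and Gtse1 had 2 more, and all 4 were above background on no array, in the low-passage lines too. The detected and the undetected probe of a gene therefore disagreed in EPC and EPC_acLDL. LOC100044221 and Zfp91-Cntf were each read by 1 probe.

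The genes that work with the members were taken from short lists written after the members and their values were known. Among the other caveola genes, Cavin1, which organises the cavin coat and was listed as Ptrf, read 1441.9 and 1177.2 in EPC, 1392.1 and 1408.1 in EPC_acLDL, and 780.4 and 671.3 in EPC_Late. The EPC_Late arrays were the lowest, and the probe stayed detected on both. The log2 difference from EPC was -1.45 (SE 0.20, limma adjusted p = 0.0031), where 23.9% of all probes tested were called, 10.9% higher and 13% lower. That from EPC_acLDL was -1.36 (SE 0.20, limma adjusted p = 0.0053), where 20.9% were called, 9.34% higher and 11.5% lower, and with arrays left out this second call was lost without EPC_acLDL array 2 (limma adjusted p = 0.053). By the methods' t-test after adjustment, no call given here for a partner gene or a cell cycle gene held, and Zfp91, Gadd45a and Ccnd3 against EPC also missed the threshold before adjustment. Both comparisons share the EPC_Late arrays. Of the 12 probes of the list besides the member, Cavin1 included, 9 were above background on no array, those of Cav1, Cav2, Cav3 and Cavin2 among them. Over all 25697 probes, 2333 passed the filter. The only other probe tested, of Pacsin2, differed from EPC by -0.47 (limma adjusted p = 0.33).

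At the Zfp91 locus, the probe of Zfp91 itself read 632.1 and 810.7 in EPC, 679.2 and 676.6 in EPC_acLDL, and 549.2 and 594.8 in EPC_Late, and was detected on all 6 arrays. Its EPC_Late arrays were the lowest. The log2 difference was -0.95 from EPC (SE 0.20, limma adjusted p = 0.018) and -0.54 from EPC_acLDL (limma adjusted p = 0.13). The call against EPC was lost, at adjusted p-values of 0.051 to 0.10 in limma, without EPC array 2 or without any one of the EPC_acLDL or EPC_Late arrays. Cntf was above background on no array.

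**Figure D4:**
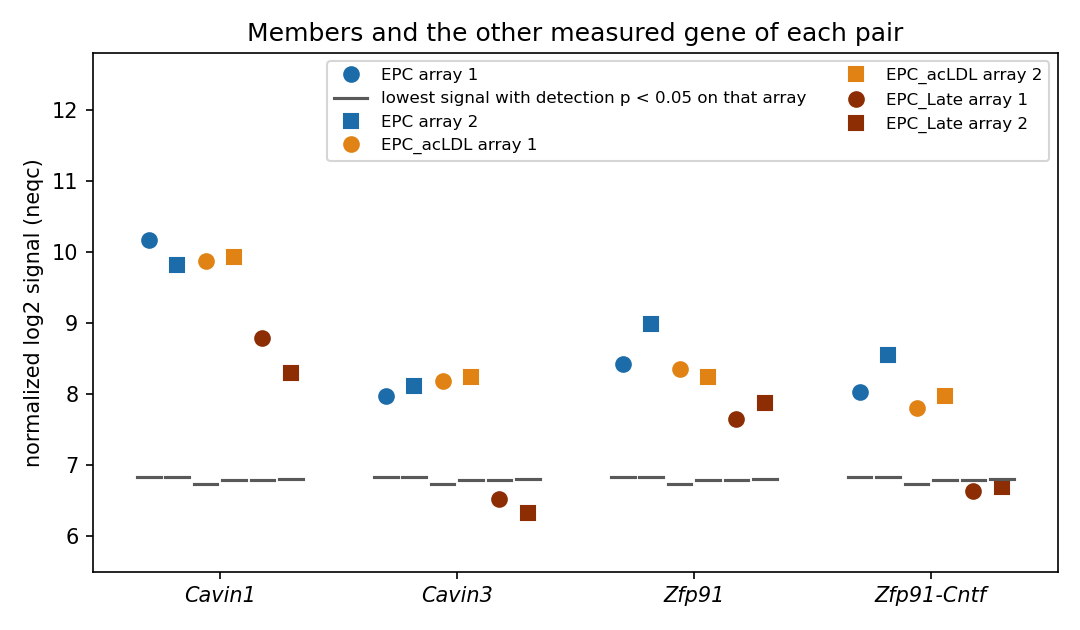
Normalized log2 signal of Cavin1 and Cavin3 and of Zfp91 and Zfp91-Cntf on each array, with circles for array 1, squares for array 2 and bars at the lowest signal with a detection p-value below 0.05 on that array. In EPC_Late, Cavin1 and Zfp91 remain above their bars, whereas Cavin3 and Zfp91-Cntf lie below them.

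None of the partners of Gtse1 could be read. The 9 probes of its list, which hold p53 (Trp53), Cdkn1a, Plk1, Kif2c, Mapre1 and the other Gtse1 probes, were above background on no array. Over the whole array only 2333 of 25697 probes passed the filter, so most probes went unread. In a wider list of cell cycle and DNA replication genes, 8 of 76 probes were above background, and against EPC 4 fell and 1 rose in EPC_Late, with a median log2 difference of -0.51 against 0.01 over all probes tested, of which 13% were lower and 10.9% higher. The list medians depend on the background correction, and this one was -0.30 with normexp at an offset of 50 and -0.16 without correction. The other gene lists went both ways. Of splicing and RNA binding 21 of 36 probes were lower and 0 higher (median -0.54), of actin, myosin and adhesion 8 of 15 lower and 0 higher (-0.90), and of the nuclear envelope and lamina 3 of 4 lower and 0 higher (-0.73). Of the extracellular matrix 3 of 5 were higher and 0 lower (0.43), of the secretory pathway 4 of 13 higher and 1 lower (0.35; 1 higher and 1 lower with a shift to a common 75th percentile), of transcription and chromatin 6 of 19 higher and 2 lower (0.03), and of energy metabolism 0 of 11 higher and 1 lower (-0.01). The lower splicing probes include those of Srsf1, Srsf2 and Srrt, and the higher chromatin probes those of Ybx3, each opposite to its direction in the study's gene list. Over all probes tested, EPC was not above background on both arrays for 64 of the 254 called higher, nor EPC_Late for 61 of the 303 called lower, and these had passed the filter through another line. The same held for every lower call of transcription and chromatin (Egr1 and Hmga1) and of energy metabolism (Hk1). It also held for 1 lower call each of the actin and the lamina lists and 1 higher call each of the secretory and the chromatin lists. In the splicing and extracellular matrix lists it held for 0. In the cell cycle list, those that fell were the survival and mitosis gene Birc5 (-1.01), the S phase transcription factor E2f1 (-1.14), the nucleotide synthesis enzyme Tyms (-1.25) and the cyclin Ccnd3. Ccnd3 was not above background in EPC_Late, passed the filter through the lines where it was higher, and lost its call in all 15 alternatives run. The gene that rose was the stress response gene Gadd45a, which was above background in EPC_Late alone and so passed the filter through the line where it was high, and whose call was lost without any one of the EPC_acLDL or EPC_Late arrays, at limma adjusted p-values of 0.061 to 0.10. Against EPC_acLDL the same 4 genes were lower, with a median of -0.45, and the calls of Birc5 and Ccnd3 there were lost without either EPC_acLDL array, at limma adjusted p-values of 0.052 to 0.08. Without EPC_Late array 2, the call of Ccnd3 was lost as well (limma adjusted p = 0.06). Gtse1 was not in this list.

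Marker genes of several cell types also differed between EPC_Late and EPC, where 10.9% of all probes tested were higher and 13% lower. Of the 6 fibroblast and mesenchymal probes above background, 3 were higher (Sparc, Col1a2 and 1 of the 2 Prrx1 probes) and Twist1 was lower. That Prrx1 probe passed the filter through EPC_Late alone. Their summed intensity was 4127.5 to 4257.8 in EPC, 5481.8 to 5585.9 in EPC_acLDL and 8859.5 to 8999.4 in EPC_Late, but without Sparc it was 2309.2 to 2425.4, 2499.5 to 2612.2 and 2559.3 to 2736.8. Of the 6 smooth muscle and pericyte probes, the 3 lower ones read 2 genes, Mylk and Tpm2, and Acta2, Cspg4 and Des did not pass the test. One of the Mylk probes was above background in EPC alone. The median log2 difference of the 6 was -0.66, and the sums were 4463.2 to 4664.1, 3105.0 to 3653.3 and 3651.6 to 3816.7. Of the 3 stem cell probes Sox2 was higher, and their sums were 2035.0 to 2056.1, 5007.2 to 5138.4 and 6581.6 to 6691.6. Sox2 made up most of that rise, at 1098.5 and 1125.7 in EPC, 4076.5 and 3913.3 in EPC_acLDL, and 5640.8 and 5456.6 in EPC_Late. Pou5f1 and Prom1 were not called. Of the 3 haematopoietic probes Coro1a was lower, with sums of 1482.2 to 1507.2, 1448.5 to 1627.3 and 1454.3 to 1595.3. Coro1a was not above background on EPC_Late array 1, so it passed the filter through lines where it was higher. None of the 2 endothelial and 2 lung epithelial probes was called. The part of such cells in the loss of the members was not tested. In RNA from a whole culture, fewer cells with an RNA and less of it per cell cannot be told apart.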

How the data were processed

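RNA of the 3 lines was hybridized to 6 Illumina MouseRef-8 v2.0 arrays, 2 for each line. In BeadStudio, the authors averaged the beads of each probe after local background subtraction. They deposited these averages as linear intensity, not normalized, and beside each a detection p-value. All columns of per-sample values were used.

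The deposited intensities were corrected and normalized with neqc of limma 3.58.1 in R 4.3.3, which estimates background through the detection p-values and brings the arrays to a common distribution of log2 values (offset 16). Probes entered the test if both arrays of any line had a detection p-value below 0.05 (2333 probes), and were tested in one limma fit of all 6 arrays (lmFit and eBayes, no covariates, Benjamini-Hochberg adjustment). The low signal over background limits dim probes most, since the offset and the background estimate set their log2 values. Lines and replicate numbers follow the sample titles. Same-numbered arrays did not deviate together (correlations of 0.02 to 0.08), so the numbers were not taken as pairs. The members and lists were chosen with earlier results of these data known. All members were named with the value on every array, with the 3 probes on each side of each limit. The partner genes were chosen after the values of the members were seen, and of the list genes only called ones are given with a value. The alternatives were other background corrections, scalings, filters and detection limits, each array left out, the replicate block, limma-trend, the 4 arrays of EPC and EPC_acLDL alone, and the methods' t-test. The steps were tested on simulated data. False calls stayed near the threshold when the background of a probe was partly shared between arrays, as in the undetected probes here, and were well above it when it was independent, so adjusted p-values of dim probes may understate the error. Gene names in the files were matched by symbol (14309) or synonym (2959) to the RefSeq table of GRCm38.p6, and 870 kept the name in the file.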

Additional observations from a re-analysis of the deposited data

How the results depend on the processing

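LOC100044221 was the only member past the threshold between EPC_acLDL and EPC in 16 of the 17 alternatives, with log2 differences of -1.91 to -1.02, and 0 members passed by the methods' t-test after adjustment. The number of lost probes was 24 with a low-passage limit of 0.05, 0 with 0.001, 43 with an EPC_Late limit of 0.01, 0 with 0.10, and 5 to 11 with arrays left out. The median bound of the 5 members, 2.65-fold for EPC and 2.32-fold for EPC_acLDL, was 1.80 and 1.64 with normexp at an offset of 50, 1.43 and 1.35 without background correction, 2.61 and 2.55 with a shift to the 75th percentile, 2.48 and 2.57 without normalization, and 2.49 to 2.66 and 2.03 to 2.33 with arrays left out. Probes called between EPC_acLDL and EPC, 77 in all, numbered 164 with the offset of 50, 273 without background correction, 138 with the shift, 285 without normalization, 173 with the stricter filter, 50 without any, 281 with limma-trend, 356 and 2 by the methods' t-test before and after adjustment, and 9 to 31 with arrays left out. The replicate block gave 43 there, 547 for EPC_Late with EPC and 458 for EPC_Late with EPC_acLDL, and the LOC100044221 call held (limma adjusted p = 0.0055). Between EPC_Late and EPC the count of 557 became 356 to 454 with arrays left out and 15 by the adjusted methods' t-test. For EPC_Late with EPC_acLDL the count of 487 became 197 to 442 and 11 in the same way. Where an array was left out, the lone array of its line was assumed to vary like the others. The shift to the 75th percentile and the lack of normalization moved the median of all probes by 0.16 and 0.25 between EPC_acLDL and EPC, and LOC100044221 still differed by -1.66 and -1.57. The causes of these changes were not tested. Signal over background limits the members in EPC_Late, where none was above background.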
